A study of Gossypium barbadense and Gossypium hirsutum with 8 samples.

Results

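The genes described here are 16 of 59006 listed genes whose transcript level rose at each of the 3 steps between 5 and 20 days post anthesis (DPA) in developing fibers of both Gossypium barbadense and Gossypium hirsutum. They were chosen on the measured values. Each library's RPKM (a read count divided by gene length and library size) was rescaled to a sum of 300000, called the scaled level below. A member had to rise at every step in both species, stand at least 8 times higher at 20 than at 5 DPA in both, reach 1 RPKM at 5 DPA and 20 RPKM at 20 DPA in both, and have a lowest value under 100 RPKM. All 8 libraries and the change with age were thus used in the choice, so the rise itself is given as a description, with no test.

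Fiber RNA of both cultivated tetraploid cottons was sequenced as 1 library per species and stage. G. barbadense, the extra-long-staple cotton, was sampled at 5, 10, 15 and 20 DPA, and so was G. hirsutum, upland cotton. The labels name no cultivar, treatment or number of plants, and the last stage is labelled 20 DPA while its titles carry the number 25. A stage has no replicate within a species, so p-values below measure only how evenly a difference recurred over the libraries.

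A cotton fiber is a single cell of the seed-coat epidermis. It first elongates with a thin primary wall, then passes through a transition phase and lays down a thick, cellulose-rich secondary wall. Transcripts of the wall-building phase are known to accumulate late in this course, and those of fast elongation to decline. Each of these tetraploids holds A and D subgenomes, so many genes exist as closely similar copies. The identifiers carry no gene names and have the Gh_ form used for G. hirsutum. The reference table at hand held 74561 G. barbadense genes, and 0 of the identifiers matched it. Neither a function nor a sequence is thus given for any member, and markers of fiber or of other seed tissues were not looked at. The same identifiers served both species, and whether reads of both fit these genes equally well was not tested. An identifier such as Gh_A04G1008 places a gene on chromosome A04.

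The libraries differed in summed RPKM, from 258680 to 503585 in G. barbadense and from 138198 to 326872 in G. hirsutum, which is why the scaled level is given beside the deposited RPKM. Read from the steps between low values, the library sizes behind the authors' scaling ranged over 0.975 to 1.16 times that of G. barbadense at 5 DPA. The search covered only sizes near that of this library, so much larger differences could not have been found. A single read corresponded to 0.170 RPKM at the median over genes, so that 1 RPKM stood for about 5.88 reads. At the 90th and 10th percentiles of RPKM per read it stood for 2.10 and 13.3 reads. These values come from the 45.0% of genes for which the worth of 1 read was found, and none is given for single members. The lowest 5 DPA values of the members, near 1 RPKM, therefore rest on few reads.

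Of all listed genes, 1064 rose at every step of the scaled level in G. barbadense, 1195 in G. hirsutum and 148 in both. The limit of 8-fold left 34 genes above 0 at 5 DPA, the limit at 5 DPA left 19, and that at 20 DPA left 18. The last condition removed a further 2 genes, Gh_A06G0811 and Gh_D06G0940, whose lowest values were above 100 RPKM. The 16 members made up 0.0729%, 0.132%, 0.286% and 1.63% of the summed RPKM at 5, 10, 15 and 20 DPA for G. barbadense, against 0.0537%, 0.177%, 0.432% and 1.33% for G. hirsutum. Their median level was 5.90, 30.3, 50.1 and 169 RPKM for G. barbadense against 4.0, 19.3, 30.1 and 127 RPKM for G. hirsutum. The median over the 20356 genes averaging 1 RPKM or more stood at 3.50, 5.88, 3.02 and 1.16 RPKM for G. barbadense, against 1.37, 2.89, 1.88 and 1.3 RPKM for G. hirsutum. 

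**Figure D1:**
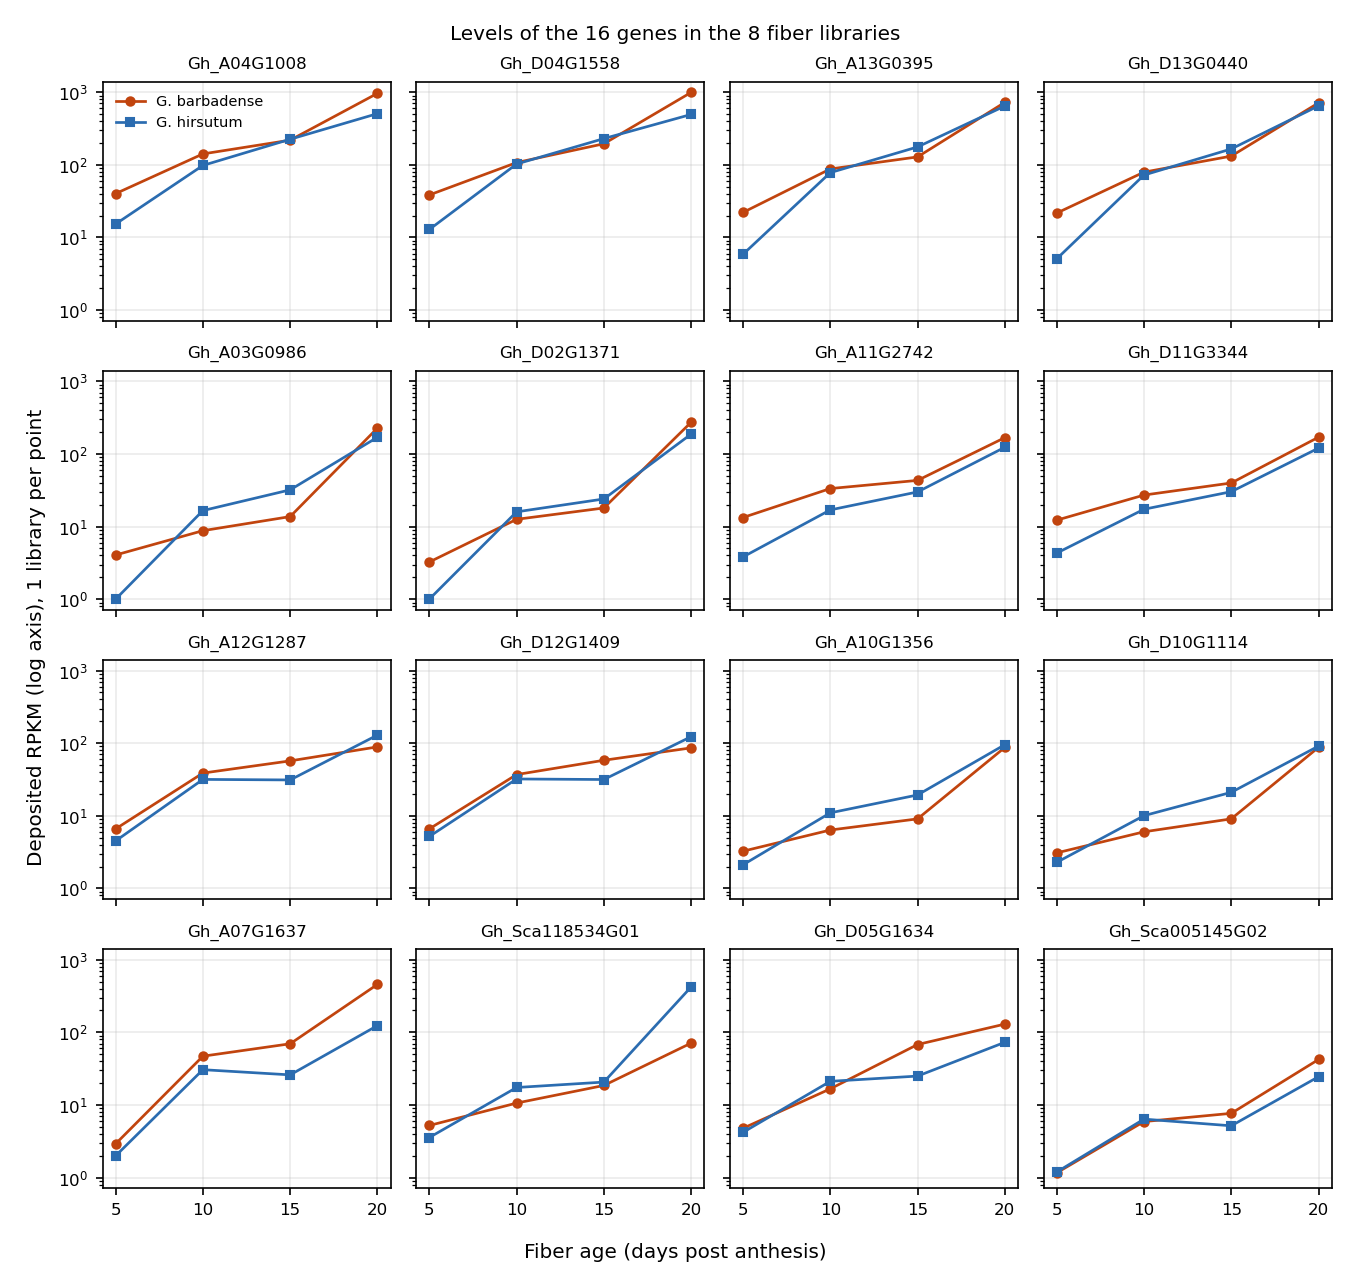
Deposited RPKM (log axis) of each of the 16 genes against fiber age in days post anthesis, with circles for G. barbadense and squares for G. hirsutum, 1 library per point. The first 12 panels are the 6 A and D pairs, and the squares of Gh_A07G1637, Gh_A12G1287, Gh_D12G1409 and Gh_Sca005145G02 are slightly lower at 15 than at 10 DPA.

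Most members fell into pairs of one A and one D identifier whose values nearly matched. By a rule on identifier order alone (same chromosome number, relative order within 5% of the chromosome), 2 pairs were found, Gh_A13G0395 with Gh_D13G0440 and Gh_A12G1287 with Gh_D12G1409. A further 4 were recognised after their values were seen, by a mean absolute log2 ratio under 0.3 and no library 2-fold apart. Any A identifier could match any D identifier. These were Gh_A04G1008 with Gh_D04G1558, Gh_A11G2742 with Gh_D11G3344, Gh_A10G1356 with Gh_D10G1114, and Gh_A03G0986 with Gh_D02G1371. The last pair joins chromosomes of different number. The 6 pairs hold 12 members and leave Gh_A07G1637, Gh_D05G1634, Gh_Sca118534G01 and Gh_Sca005145G02 without a partner in the group.

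Over the 48 comparisons of a pair within a library, the A identifier stood between 0.697 and 1.34 times the D identifier. The values were within 1.2-fold in 41 and within 1.1-fold in 34. In the pair on A13 and D13, found from order alone, the A identifier stood at 0.975 to 1.16 times the D identifier, and in that on A12 and D12 at 0.869 to 1.05 times. Neither was chosen for equal levels, whereas the other 4 were. How reads that fit both copies were counted is not given in the sources used here. Whether partners shared reads was not tested, and the 16 members cannot be taken as 16 independent courses.

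**Figure D2:**
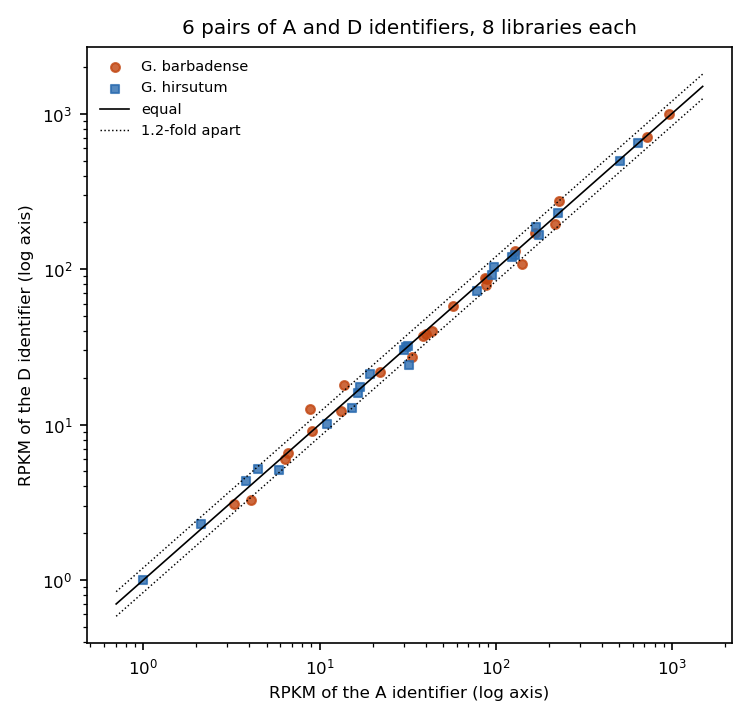
RPKM of the D identifier against RPKM of the A identifier (both log axes) for the 6 pairs in 8 libraries, with circles for G. barbadense and squares for G. hirsutum. The solid line marks equal values and the dotted lines 1.2-fold, which 41 of the 48 points do not exceed; the points farthest out belong to Gh_A03G0986 and Gh_D02G1371.

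The most abundant members were Gh_A04G1008 and Gh_D04G1558. Gh_A04G1008 stood at 40.1, 141, 219 and 965 RPKM at 5, 10, 15 and 20 DPA for G. barbadense, against 15.3, 98.01, 225 and 507 RPKM for G. hirsutum. Its partner Gh_D04G1558 stood at 38.4, 107, 195 and 995 RPKM for G. barbadense, against 12.9, 103, 230 and 494 RPKM for G. hirsutum. The G. barbadense RPKM was the higher at 5, 10 and 20 DPA in both genes and the lower at 15 DPA. After rescaling it was the lower at 10 DPA too, at 0.936 and 0.679 times G. hirsutum. In G. hirsutum both genes had by 15 DPA reached more of their 20 DPA level, 52.3% and 54.8% on the scaled level, against 19.3% and 16.7% in G. barbadense.

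Gh_A13G0395 and Gh_D13G0440 were alike in the order of the species at each stage, with a steeper first step in G. hirsutum. In the deposited RPKM G. barbadense was the higher at 5, 10 and 20 DPA and the lower at 15 DPA. On the scaled level it was the lower at 10 DPA too, at 0.730 and 0.712 times G. hirsutum. Gh_A13G0395 stood at 22.1, 87.7, 128 and 725 RPKM for G. barbadense, against 5.85, 78.0, 176 and 645 RPKM for G. hirsutum. Gh_D13G0440 stood at 21.6, 79.2, 132 and 713 RPKM for G. barbadense, against 5.06, 72.3, 165 and 649 RPKM for G. hirsutum. The species were far apart at 5 DPA, where G. barbadense held 3.77 and 4.27 times the RPKM, and close at 20 DPA, at 1.12 and 1.1 times.

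The largest rises shared by both species were those of Gh_D02G1371 and Gh_A03G0986. Gh_D02G1371 stood at 3.25, 12.6, 18.04 and 274 RPKM for G. barbadense, against 1.0, 15.96, 24.01 and 188 RPKM for G. hirsutum. Gh_A03G0986 stood at 4.06, 8.78, 13.7 and 228 RPKM for G. barbadense, against 1.0, 16.6, 32.1 and 170 RPKM for G. hirsutum. On the scaled level the ratio of 20 to 5 DPA was 67.2 and 44.8 for G. barbadense, against 87.1 and 78.8 for G. hirsutum. Both genes sat exactly at the limit of 1 RPKM at 5 DPA in G. hirsutum, so these last ratios rest on few reads. In G. barbadense most of the rise fell in the last step, where the scaled level at 15 DPA was 5.62% and 5.14% of that at 20 DPA, against 15.1% and 22.2% in G. hirsutum.

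A second pair with a late rise in G. barbadense was Gh_A10G1356 and Gh_D10G1114. Gh_A10G1356 stood at 3.25, 6.36, 9.06 and 87.4 RPKM for G. barbadense, against 2.11, 11.0, 19.3 and 95.3 RPKM for G. hirsutum. Gh_D10G1114, the second lowest member on average, stood at 3.08, 6.01, 9.06 and 87.7 RPKM for G. barbadense, against 2.28, 10.0, 21.0 and 91.2 RPKM for G. hirsutum. Their first step in G. barbadense was a rise of only 0.523% and 0.234% on the scaled level, which at these levels cannot be told from no change.

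Gh_A11G2742 and Gh_D11G3344 kept the same order of the species throughout in the deposited RPKM. Gh_A11G2742 stood at 13.3, 33.4, 43.3 and 168 RPKM for G. barbadense, against 3.82, 17.0, 30.01 and 124 RPKM for G. hirsutum. Gh_D11G3344 stood at 12.2, 27.2, 39.9 and 170 RPKM for G. barbadense, against 4.31, 17.3, 30.2 and 121 RPKM for G. hirsutum. The deposited RPKM was higher in G. barbadense at all 4 stages in both genes. On the scaled level G. barbadense was the lower at 15 DPA, at 0.960 and 0.877 times G. hirsutum.

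Evenness was taken as the part of the log2 rise that fell in the largest step, on the scaled level and averaged over the species. This part was lowest, and the course thus most even, for Gh_A12G1287 and Gh_D12G1409, at 47.6% and 47.5%. It was hardly higher for Gh_A04G1008, at 47.7%. Gh_A12G1287 stood at 6.59, 38.7, 57.0 and 88.9 RPKM for G. barbadense, against 4.50, 31.7, 31.1 and 129 RPKM for G. hirsutum. Gh_D12G1409 stood at 6.59, 36.9, 58.1 and 86.1 RPKM for G. barbadense, against 5.18, 32.1, 31.6 and 123 RPKM for G. hirsutum. Here G. barbadense had by 15 DPA reached 54.7% and 57.6% of its 20 DPA level on the scaled level, against 28.4% and 30.3% in G. hirsutum. The G. hirsutum values at 10 and 15 DPA were nearly equal in the deposited RPKM, and on the scaled level both genes rose by 27.1% over that step.

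Among the members without a partner, Gh_A07G1637 had the largest rise in G. barbadense, 126-fold on the scaled level against 28.8-fold in G. hirsutum. It stood at 2.91, 46.9, 69.6 and 458 RPKM for G. barbadense, against 1.99, 30.6, 25.9 and 124 RPKM for G. hirsutum. The G. barbadense RPKM was above the G. hirsutum RPKM at every stage. Its scaled level was lower at 5 DPA, at 0.781 times G. hirsutum, about equal at 10 DPA, at 0.996 times, and higher at the later stages.

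Gh_Sca118534G01, on an unplaced scaffold, had the least even course, with 67.1% of the log2 rise in the largest step. It stood at 5.21, 10.6, 18.6 and 71.2 RPKM for G. barbadense, against 3.56, 17.4, 20.6 and 423 RPKM for G. hirsutum. The 20 DPA library of G. barbadense held 0.168 times the RPKM of that of G. hirsutum, the widest gap of any member at any stage, and at 15 DPA the ratio was 0.898.

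Gh_D05G1634 was the only member whose largest step in G. barbadense was that from 10 to 15 DPA. It stood at 4.77, 16.7, 68.0 and 130 RPKM for G. barbadense, against 4.19, 21.1, 24.98 and 72.9 RPKM for G. hirsutum. Its scaled level rose by 2.43 on the log2 scale over that step in G. barbadense and by 0.61 in G. hirsutum.

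Gh_Sca005145G02 was the least abundant member. It stood at 1.16, 5.90, 7.66 and 42.3 RPKM for G. barbadense, against 1.19, 6.38, 5.16 and 24.5 RPKM for G. hirsutum. The RPKM of the species was close at 5 and 10 DPA, and that of G. barbadense was the higher at 15 and 20 DPA. Rescaled, G. barbadense stood at 0.521, 0.600, 0.988 and 1.59 times G. hirsutum, so that it was the higher at 20 DPA only.

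The limit of 8-fold was met most narrowly by Gh_D05G1634 and Gh_Sca005145G02, whose smaller ratios, both in G. hirsutum, were 8.06 and 9.53. Just outside it were Gh_D11G2698 and Gh_A11G0681, with 7.59 and 7.57. Gh_A11G0681 stood at 27.3, 83.0, 174 and 373 RPKM for G. barbadense, against 10.9, 89.0, 96.9 and 178 RPKM for G. hirsutum, a course like that of the members.

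The word steady fits these courses only in part. On the scaled level the last step, from 15 to 20 DPA, was the largest in 12 of 16 members in G. barbadense and in 9 in G. hirsutum, and in 6 in both. The median step was 0.85, 0.99 and 2.62 on the log2 scale for G. barbadense, against 1.41, 1.18 and 1.81 for G. hirsutum. Step sizes are not given per day. The titles of the last stage carry the number 25, so the last step may span more days than the others. How far this bears on its size was not tested. Of the 96 steps, 7 were rises of less than 25%, each in another member, 5 of them the first step in G. barbadense and 2 the middle step in G. hirsutum. In the deposited RPKM all 16 members rose at every step in G. barbadense, and 12 did so in G. hirsutum. There Gh_A07G1637, Gh_A12G1287, Gh_D12G1409 and Gh_Sca005145G02 were lower at 15 than at 10 DPA. A rise in G. barbadense with a fall in G. hirsutum over this step was found in 10.4% of the 17577 genes tested and above 0 in those libraries. With median-of-ratios factors, which set the typical gene equal between libraries, all 16 rose at every step in both species. The count of members with the last step largest in G. hirsutum was 1 in the deposited RPKM and 10 with median-of-ratios factors, and in G. barbadense it was 12 on each scale.

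**Figure D3:**
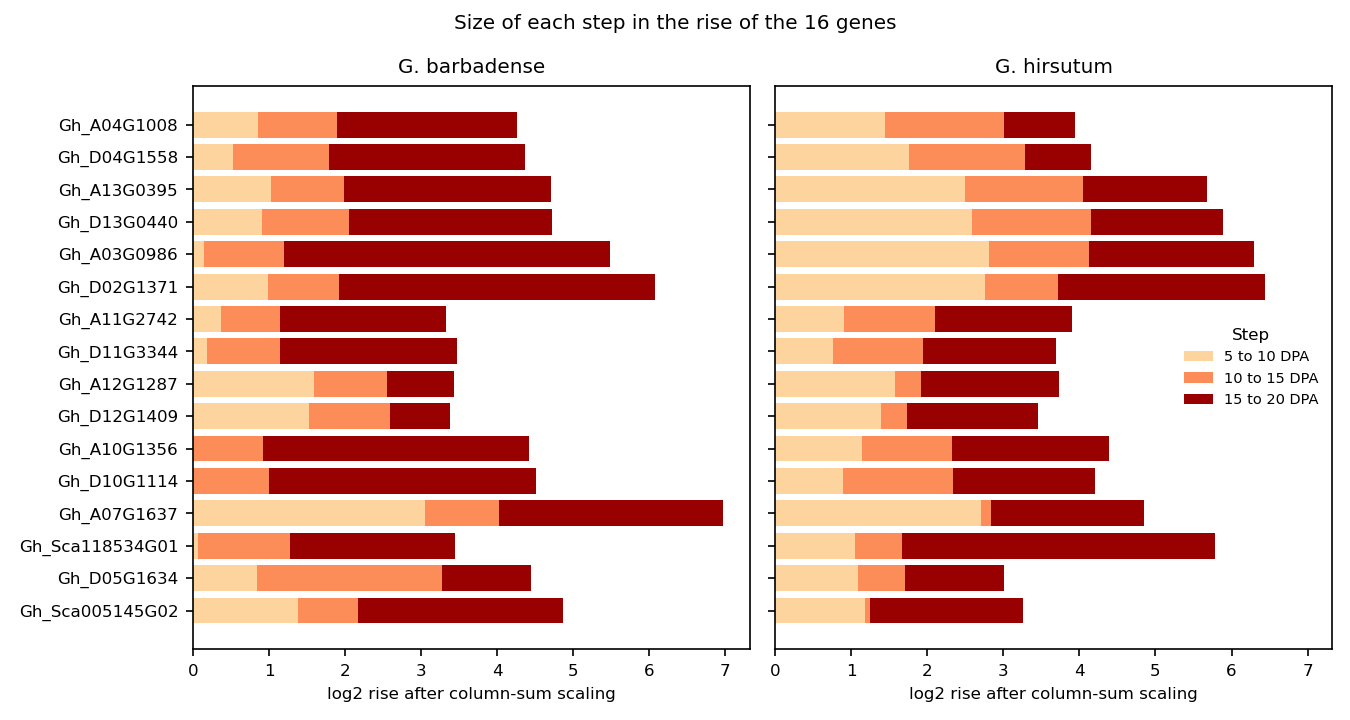
Log2 rise of the scaled level in each of the 3 steps, stacked from 5 to 20 DPA, for the 16 genes in G. barbadense (left) and G. hirsutum (right), 1 library per stage. The step from 15 to 20 DPA is the longest bar part in 12 genes in G. barbadense and in 9 in G. hirsutum, and the first part is barely visible for Gh_A10G1356 and Gh_D10G1114 in G. barbadense.

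The same limits on fold and level were met by 41 further genes that did not rise at every step. Of these, 36 broke the rise in G. barbadense and 27 in G. hirsutum, 22 of them in both. The first step was the one most often missed, by 29 genes in G. barbadense and 16 in G. hirsutum. No such gene failed to rise from 15 to 20 DPA in G. barbadense, and 5 did in G. hirsutum. The last step was the largest in 34 of the 41 in G. barbadense and in 33 in G. hirsutum. Since the step rule divides these genes from the members, their difference in course is no separate finding.

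The study compared the species. The rule asked nothing about which species was higher, but its limits on level and fold had to be met in both. Genes absent or weak in either species at the first or last stage were thus left out beforehand, which favours small species differences. Over the 4 stages no member differed between the species past the threshold (limma on log2(RPKM + 1), stage in the model, threshold 0.05 on the p-value after Benjamini-Hochberg adjustment). The adjusted p-values of the members were 0.168 or more, and at an unadjusted p under 0.05 there was 1 of 16 members. Over all 20356 genes, 1.46% were called higher and 0.378% lower in G. barbadense (0.157% and 0.408% after rescaling to equal sums), and 26.5% had an unadjusted p under 0.05. The rule's limits on level and fold were not asked of these genes. With 1.84% of them called in either direction, 0 among 16 is no finding about the members. The share called higher turned on single libraries. It was 14.0% without the G. barbadense library of 20 DPA and 13.8% without that of G. hirsutum, and lay between 0.0344% and 0.059% without any one library of another stage, with 0 members called in each case. The members' median difference, G. barbadense minus G. hirsutum, was 0.35 on the log2 scale against 0.49 over all genes tested. After rescaling to equal sums it was -0.13 against 0.12. Of the 16 members, 12 were higher in G. barbadense as deposited, 6 after rescaling to equal sums or with median-of-ratios factors, and 4 after quantile normalization. The sign was the same on all 4 scales for 8 members.

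The largest differences towards G. barbadense were those of Gh_A07G1637 and Gh_A11G2742. Gh_A07G1637 averaged 5.63 on the log2(RPKM + 1) scale in G. barbadense and 4.57 in G. hirsutum (difference 1.06, SE 0.47, 95% interval 0.06 to 2.07, 4 libraries per species). It was higher at all 4 stages in the deposited RPKM, though at 2 of 4 on the scaled level, and missed the threshold (limma, adjusted p = 0.168). In the deposited RPKM it was the 1 member with an unadjusted p under 0.05. With equal sums, median-of-ratios factors and quantile normalization its limma unadjusted p was 0.254, 0.237 and 0.406. There the 1 such member was Gh_Sca118534G01, lower in G. barbadense (limma unadjusted p 0.030, 0.041 and 0.025). Gh_A11G2742 averaged 5.45 in G. barbadense and 4.59 in G. hirsutum (difference 0.87, SE 0.46, 95% interval -0.11 to 1.84, limma adjusted p = 0.238).

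In the other direction stood Gh_Sca118534G01 and Gh_D10G1114. Gh_Sca118534G01 averaged 4.16 in G. barbadense and 4.89 in G. hirsutum (difference -0.73, SE 0.54, 95% interval -1.89 to 0.43, limma adjusted p = 0.404). Without either or both 20 DPA libraries, which gives the same estimate as the model pairs libraries by stage, the difference was -0.12. In the deposited RPKM it thus rests mostly on that stage. On the scaled level the gene was lower in G. barbadense at all 4 stages, at 0.782, 0.396, 0.598 and 0.155 times G. hirsutum. After rescaling to equal sums the difference was -1.22. Gh_D10G1114 averaged 3.66 in G. barbadense and 4.04 in G. hirsutum (difference -0.38, SE 0.48, 95% interval -1.41 to 0.65, limma adjusted p = 0.647). These intervals are wide, and they leave room for differences of 2-fold or more in each of the 4 genes.

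The change with age is given without a test, since the rule required a rise in both species and so removed genes with opposite courses. Fitted as a slope per 5 days, the difference between G. barbadense and G. hirsutum lay between -0.85 (Gh_Sca118534G01) and 0.53 (Gh_A07G1637) on the log2(RPKM + 1) scale. Its median was -0.19 over the members and -0.29 over all genes tested. After rescaling to equal sums it was -0.0404 against -0.15, and with median-of-ratios factors 0.0862 against -0.0442, so its sign turned with the scaling.

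At single stages each species has 1 library, so no replicate check exists, and the species ratio of the members turned over the course. On the scaled level 8, 2, 4 and 11 members were higher in G. barbadense at the successive stages. The median ratio of G. barbadense to G. hirsutum was 1.11, 0.696, 0.622 and 1.24 at these stages, and in the deposited RPKM it was 2.08, 1.07, 0.935 and 1.35. The lowest medians were thus at 15 DPA on both scales, while the direction at 10 DPA differed between them. The same counts and medians were not computed over all genes tested. Whether the turn belongs to the members or to the libraries was therefore not tested, and it is no finding about the members.

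At least 2-fold higher in G. barbadense on the scaled level were 3 members at 5 DPA, 0 at 10 and 15 DPA and 1 at 20 DPA, against 39.1%, 32.5%, 34.2% and 16.3% of all genes tested. At least 2-fold lower were 0, 4, 5 and 1 members, against 22.2%, 19.0%, 27.8% and 26.2% of all genes. In the deposited RPKM 8, 0, 2 and 2 members were at least 2-fold higher, against 56.1%, 48.0%, 42.8% and 20.0% of all genes, and 0, 0, 3 and 1 were at least 2-fold lower, against 13.0%, 10.5%, 17.7% and 22.8%. On the scaled level the 5 lower ones at 15 DPA were Gh_A13G0395, Gh_D02G1371, Gh_A03G0986, Gh_A10G1356 and Gh_D10G1114, which include 2 whole pairs. The 3 higher ones at 5 DPA were Gh_A13G0395, Gh_D13G0440 and Gh_A03G0986. No member of the group was 2-fold apart in the same direction at all 4 stages on either scale. The share of all genes that was so was not counted, and the rule favours small species differences. The absence is thus no finding about the members.

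**Figure D4:**
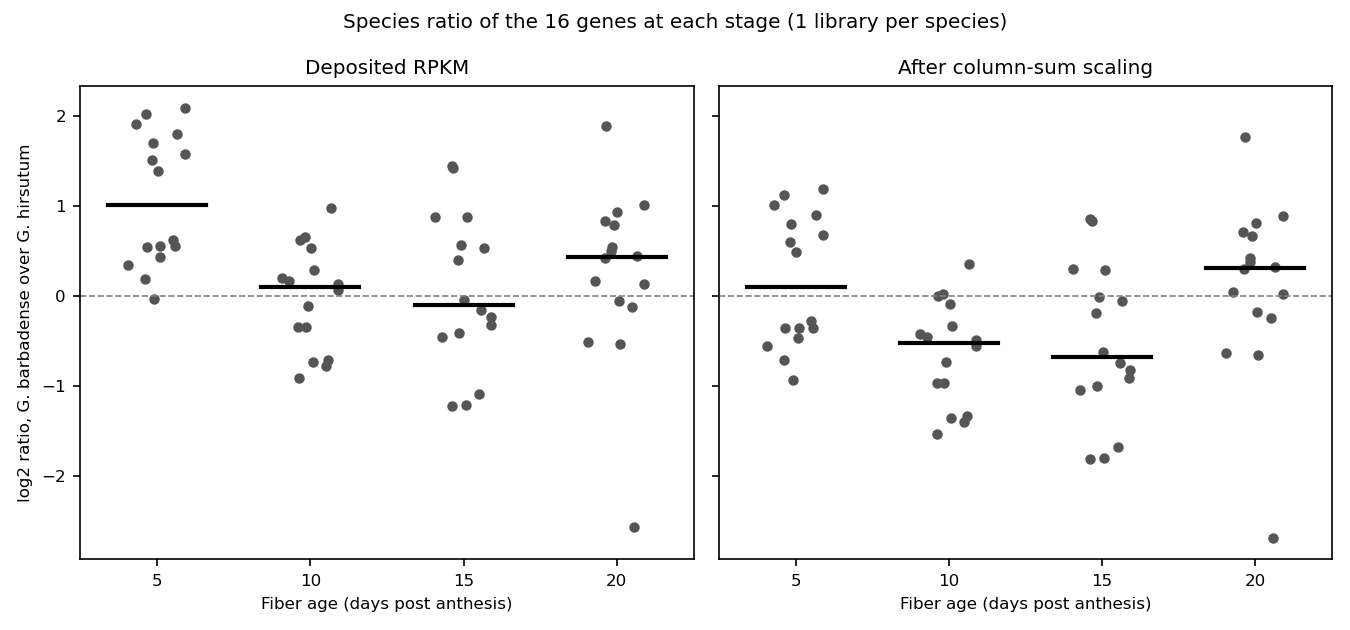
Log2 ratio of G. barbadense over G. hirsutum for the 16 genes (points) at each fiber age in days post anthesis, from the deposited RPKM (left) and the scaled level (right), with the median as a bar. The points scatter sideways only to be seen. The median on the right is 0.622-fold at 15 DPA and 1.24-fold at 20 DPA, and the lowest point at 20 DPA is Gh_Sca118534G01.

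Within the courses, more of the 20 DPA level was reached by 15 DPA in G. hirsutum for most members. The level at 15 DPA relative to 20 DPA was lower in G. barbadense in 12 of 16 members on the scaled level (55.3% of the 13795 genes above 0 in those libraries), in 11 in the deposited RPKM (44.3%) and in 12 with median-of-ratios factors (49.2%). On the scaled level its median was 16.2% in G. barbadense, with a range of 5.14% to 57.6%, and 28.5% in G. hirsutum, with a range of 5.76% to 54.8%. The exceptions on the scaled level were Gh_A12G1287, Gh_D12G1409, Gh_D05G1634 and Gh_Sca118534G01. The change from 5 to 10 DPA was smaller in G. barbadense in 12 members on the scaled level (49.4% of 17550 genes), in 15 in the deposited RPKM (55.2%) and in 12 with median-of-ratios factors (45.3%). The rule fixed the direction of these steps and pairs count double, so the counts are given as a description.

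The members lay on both subgenomes: 7 identifiers name an A chromosome, 7 a D chromosome and 2 an unplaced scaffold. Of the genes tested 47.0% were on A, 48.9% on D and 4.10% on scaffolds. No pair of members lay within 10 identifiers of each other on a chromosome. Around the 14 members on chromosomes, 115 of the 5 identifiers on each side were listed and 50 had a mean of at least 1 RPKM. None of these 50 stood 8-fold higher at 20 than at 5 DPA in both species with a value above 0 at 5 DPA. The share of all genes that did so was not counted. With the limits on level added, only 57 of the 59006 listed genes met the fold limit, so none among 50 is no finding about the members.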

How the data were processed

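The RPKM values were made and deposited by the authors, with 2 decimals, as 1 table of 59006 genes in 8 columns, each matched to a sample by its title. Tools listed in the submitters' processing notes are cutadapt, Bowtie2 and edgeR, without versions. Genome build, annotation and the counting of reads fitting several genes were not given in the sources used here. All lists and the members were chosen with earlier results of these data known.

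The test was limma (version 3.58.1, R 4.3.3; lmFit, trended eBayes) on log2(RPKM + 1), two-sided. P-values were adjusted by Benjamini-Hochberg over the 20356 genes averaging 1 RPKM or more. The scale understates changes of low genes. The species model held stage as a factor (3 residual degrees of freedom), which pairs the libraries by stage. A slope model held species, age and their product, and its values are given without a test. All 16 members passed the filter. The scaled level is RPKM divided by the column sum, times 300000. Median-of-ratios factors came from 15529 genes above 0 in all libraries. The worth of 1 read was found for 18188 of 40389 genes with 4 or more values above 0, within 0.15 reads. The fits and the depth estimate were tested on simulated data. Other steps used Python 3.11.15, pandas 2.3.3 and numpy 2.4.6.

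Members were named by a rule: 2 per direction in level, rise, evenness, species difference and distance from the limit, and pairs. It covered 15 members, and Gh_D11G3344 was named as a partner after its values were seen.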

Additional observations from a re-analysis of the deposited data

Results flagged for a closer look

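In the deposited RPKM, 4 members rose between 10 and 15 DPA in G. barbadense and fell in G. hirsutum, as did 10.4% of the genes tested and above 0 in those libraries. For Gh_A07G1637 the log2 change was 0.57 for G. barbadense against -0.24 for G. hirsutum. It was 0.56 and -0.0248 for Gh_A12G1287, 0.65 and -0.0249 for Gh_D12G1409, and 0.38 and -0.31 for Gh_Sca005145G02, in each case for G. barbadense and then G. hirsutum. Each value rests on 1 library per stage, and the difference between the species was not tested for this step. The G. barbadense libraries summed to 503585 RPKM at 10 DPA and 380030 RPKM at 15 DPA, the G. hirsutum libraries to 326872 and 252850 RPKM. The G. barbadense sum thus fell by 0.41 and the G. hirsutum sum by 0.37 on the log2 scale. All 4 genes rose after rescaling to equal sums, which the rule required of every member, so this is no separate finding. Whether the sums account for the opposite directions was not tested. Gh_A12G1287 and Gh_D12G1409 form a pair, and their falls were the smallest of the 4.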

How the results depend on the processing

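The number of genes found depended on the limits. With the deposited RPKM in place of the scaled level it was 29, of which 12 were members, and with median-of-ratios factors 42, including all 16. A limit of 4-fold gave 29 and of 16-fold 8, no condition on the steps gave 57, and a rise of at least 25% per step gave 9. The cause was not tested. A minimum of 10 RPKM at 20 DPA gave 17 and of 2 RPKM at 5 DPA 12. Members with the last step largest in both species numbered 6 on the scaled level, 1 in the deposited RPKM and 7 with median-of-ratios factors. No member passed the limma threshold for the species difference in any of 16 alternatives (lowest adjusted p 0.159). These include 0.1 as pseudocount, filters at 5 RPKM and none, 3 rescalings, each library left out and both 20 DPA libraries left out. With each library left out, 0 members passed in every run, and without the replicate block of stage the count was also 0. The 4 genes named for a species difference kept their direction in all 16, with differences of 0.42 to 1.29 (Gh_A07G1637), 0.30 to 1.01 (Gh_A11G2742), -1.25 to -0.12 (Gh_Sca118534G01) and -0.97 to -0.13 (Gh_D10G1114). Many of the 16 repeat an estimate and are no separate checks of direction. Leaving out either library of a stage gives the same difference, as does leaving out both at 20 DPA. The filters and the model without stage leave the difference unchanged. Depth limits the 5 DPA values most, and no stage has a replicate within a species.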

Other observations

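For the 4 members without a partner among the 16, the genes with the most similar levels over the 8 libraries were looked up in the whole table, after the values were seen, by the widest ratio of RPKM + 1 in any library. For Gh_Sca005145G02 it was Gh_A10G2281, never more than 1.53-fold away, at 1.59, 6.85, 5.59 and 33.1 RPKM in G. barbadense and 2.36, 5.85, 7.37 and 31.2 RPKM in G. hirsutum. For Gh_D05G1634 it was Gh_A05G0006 (1.98-fold), for Gh_A07G1637 Gh_D03G0691 (2.30-fold) and for Gh_Sca118534G01 Gh_D05G0946 (2.51-fold). Among the 41 genes that met the other limits without rising at every step, 13 stood in near-equal A and D pairs by the same criterion as 12 of the 16 members. These 13 genes made 8 pairs, so some were in several pairs.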
